A study of Gallus gallus with 58 samples.

Results

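The 20 newly hatched chicks bled at 3 h were selected on time point and split by their measured blood level of MX1, and the genes that differed along with MX1 were described. MX1 encodes a dynamin-like GTPase that is among the genes most strongly induced by type I interferon. Within each treatment the 10 arrays were ranked by MX1 (1 probe set, 15392223), and the upper 5 were called MX1-high and the lower 5 MX1-low. This gave 10 MX1-high and 10 MX1-low chicks out of 58 chicks in the series. The MX1-high and MX1-low chicks were thus chosen by the measured MX1 value, not by any label, so that MX1 itself is described without a test, and a difference in another gene is an association with MX1 rather than an effect of anything done to the chicks.

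The chicks (Gallus gallus) were injected on the day of hatch with CpG-ODN 2007, a synthetic oligonucleotide that activates chicken TLR21 per the design text, or served as controls (CTL). Whole blood was taken 3 h later (10 CpG, 10 CTL), on day 3 (D3, 8 and 8) or on day 6 (D6, 10 and 12), from different chicks, and each chick gave 1 array. Breed, sex, hybridisation batch and what the controls were given are not stated in the labels used here. The deposited values are RMA log2 intensities for 20804 probe sets, on which a difference of 1 is a doubling, and levels were compared between chicks and not between genes.

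Type I interferons are secreted when cells sense foreign nucleic acid. They act through the receptor chains IFNAR1 and IFNAR2 and the kinases JAK1 and TYK2 on transcription factors of the STAT and IRF families, which switch on a large set of antiviral genes together. In mammals many cells hold a basal level of these genes in the absence of infection, and the level differs between individuals. Blood was measured as a whole, so that fewer cells of a type and less RNA per cell cannot be told apart. Bird red cells and thrombocytes are nucleated and carry RNA, and the globin HBAD, the marker of the label's whole blood, lay between 13.82 and 14.32 in the 20 chicks, near the top of the values (1.12 to 14.7).

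MX1 varied widely among the 20 chicks at 3 h. The 5 MX1-low control chicks had log2 values of 5.07, 5.61, 6.31, 6.75 and 6.97. The 5 MX1-high control chicks had 7.38, 7.45, 8.43, 8.44 and 8.71. Among CpG chicks the lower values were 4.93, 5.06, 5.64, 5.80 and 6.67, and the upper values were 6.75, 6.93, 6.94, 7.69 and 8.41. The groups do not overlap within a treatment because the rule separates them, but across treatments the MX1-low CTL chicks 78 and 76 lay above CpG chick 4, the lowest MX1-high chick. At the threshold, CTL chicks with 6.97 and 7.38 and CpG chicks with 6.67 and 6.75 fell on opposite sides.

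The mean difference was 1.94 in control chicks and 1.72 in CpG chicks, or 3.84-fold and 3.30-fold. Over all 20 chicks MX1 spanned 3.78 log2 units, a 13.7-fold range. Its standard deviation within treatments was 1.17, against a median of 0.236 over all probe sets, and placed it at rank 87 of 20804. In older blood MX1 was 8.93 ± 1.20 (SD, n = 8) in CTL and 9.83 ± 1.12 (n = 8) in CpG chicks at D3, and 7.82 ± 1.37 (n = 12) and 10.07 ± 0.603 (n = 10) at D6, against 7.11 ± 1.22 and 6.48 ± 1.12 (n = 10 each) at 3 h.

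**Figure D1:**
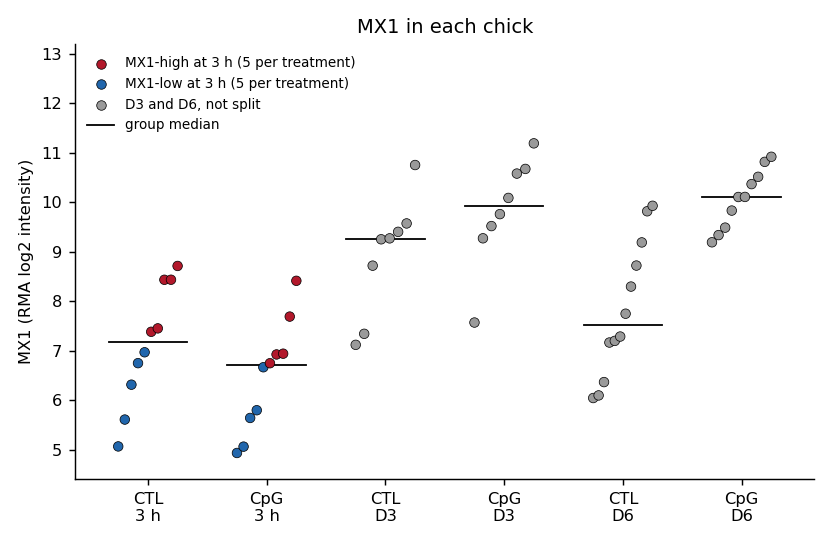
MX1 (RMA log2 intensity, vertical axis) in every chick, by treatment and time, with the group median as a line. At 3 h the 5 upper chicks of each treatment are red and the 5 lower blue. The values at 3 h run from 4.93 to 8.71, and the D3 and D6 chicks, which the split did not use, run from 6.04 to 11.19.

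The first question was which genes differed between MX1-high and MX1-low chicks when treatment was held. A limma fit to the 20 arrays called 0 of 20803 probe sets at an adjusted p of 0.05 (0% called, smallest adjusted p = 0.624). At an unadjusted p under 0.05, 743 probe sets (3.57%) were higher and 610 (2.93%) lower in MX1-high chicks. Together they were 1353 (6.5%), where 1040 would be expected if no gene differed. Array quality was taken as the spread of an array's deviations from the median of all 58 arrays (RLE IQR), which true expression differences can also widen. With that spread as a covariate the count at an unadjusted p under 0.05 was 798 (smallest adjusted p = 0.9995). Without the arrays that stand apart in it the count was 1917. No probe set separated the 10 MX1-high arrays from all 10 MX1-low arrays in either direction. The median difference over all probe sets was -0.01.

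Cutting MX1 at its middle discards the size of each chick's value, and MX1 was therefore also entered as a number as a listed alternative. That fit called 230 probe sets (1.11%), of which 214 (1.03%) rose with MX1 and 16 (0.0769%) fell. The count was 120 with array quality as a covariate and 219 without the 3 arrays that stand apart in quality. Of the 24 rule-named genes called at 3 h, 18 were also called with array quality as a covariate, and the calls of DNAL4, IRF1, IRF7, IRF8, TAPBP and TLR3 ended. Without the 3 arrays 22 were called, and those of IRF1 and TLR3 ended. With scores of 6 blood cell types as covariates no probe set was called (smallest adjusted p = 0.0531, with 1063 at an unadjusted p under 0.05). Among CpG chicks alone 16 probe sets were called and among CTL chicks alone 0 (smallest adjusted p = 0.108). It is this fit, and not the split, that the calls at 3 h below rest on, except where the split is named as their source.

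The antiviral effectors, the enzymes and binding proteins that block viral replication, held the largest differences. Of 21 measured members, 17 were higher at an unadjusted p under 0.05 and 0 lower, beside 3.57% and 2.93% of all probe sets, and their median difference was 0.98. With MX1 as a number, 16 of the 21 rose and 0 fell, beside 1.03% of all probe sets. The median difference was 1.06 within CpG chicks and 0.86 within CTL chicks. At an unadjusted p under 0.05, 12 of the 21 were higher within CpG and 6 within CTL chicks, beside 343 and 540 of all 20803 probe sets. The effectors vary together among chicks, so these 21 genes are not separate observations. As the gene lists were chosen with earlier results of these data known, the list counts at 3 h are not a fresh test.

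SAMD9L, a cytoplasmic restriction factor in mammals, showed the largest difference of all probe sets tested. Its log2 values ran from 5.82 to 11.19 (median 9.29) in the 10 MX1-low chicks and from 10.05 to 11.61 (median 11.02) in the 10 MX1-high chicks. All 10 MX1-high values lay above the MX1-low median, while the ranges overlapped from 10.05 to 11.19. The difference was 1.89 ± 0.535 (log2 ± SE), or 3.70-fold (adjusted p = 0.624), and with MX1 as a number SAMD9L rose by 1.16 ± 0.169 per log2 unit of MX1 (adjusted p = 0.000709).

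HELZ2, a helicase that acts as a nuclear receptor coactivator, ran from 7.28 to 10.66 (median 8.98) in MX1-low and from 9.47 to 11.73 (median 10.68) in MX1-high chicks. The groups overlapped, with 5 of 10 MX1-high chicks above every MX1-low chick. The difference was 1.47 ± 0.408, with mean differences of 1.51 in CpG and 1.42 in CTL chicks. Among CTL chicks the MX1-low values were 7.28, 8.57, 10.22, 10.32 and 10.66, and the MX1-high values ran from 9.47 to 11.69. The CTL mean thus leaned on the lowest values, those of chicks 73 and 77. HELZ2 rose by 0.92 ± 0.120 per unit of MX1 (adjusted p = 0.000278). ZNFX1, a helicase that senses viral RNA in mammals, differed by 1.17 ± 0.359 and rose by 0.70 ± 0.126 per unit (adjusted p = 0.00403). MOV10, an RNA helicase of the silencing machinery, differed by 0.98 ± 0.266 and rose by 0.54 ± 0.0983 per unit (adjusted p = 0.00461).

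Other effectors are named here after their values were seen. RSAD2 (viperin), which makes a chain-terminating nucleotide, differed by 1.52 ± 0.608 and rose by 1.01 ± 0.219 per unit of MX1 (adjusted p = 0.0205). Its MX1-low values spread from 6.31 to 11.76, a range that held most MX1-high values (10.40 to 12.20). OASL, an oligoadenylate synthetase relative, rose by 0.72 ± 0.121 per unit, and LY6E, a membrane protein that restricts virus entry in mammals, by 0.79 ± 0.104. Of the 21 effectors, 5 did not pass the test on MX1 at 3 h, namely IFITM5, IFITM10, DDX60, PML and the member listed as LOC422993. Their differences between MX1-high and MX1-low chicks ran from -0.16 in IFITM10 to 0.44 in DDX60.

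**Figure D2:**
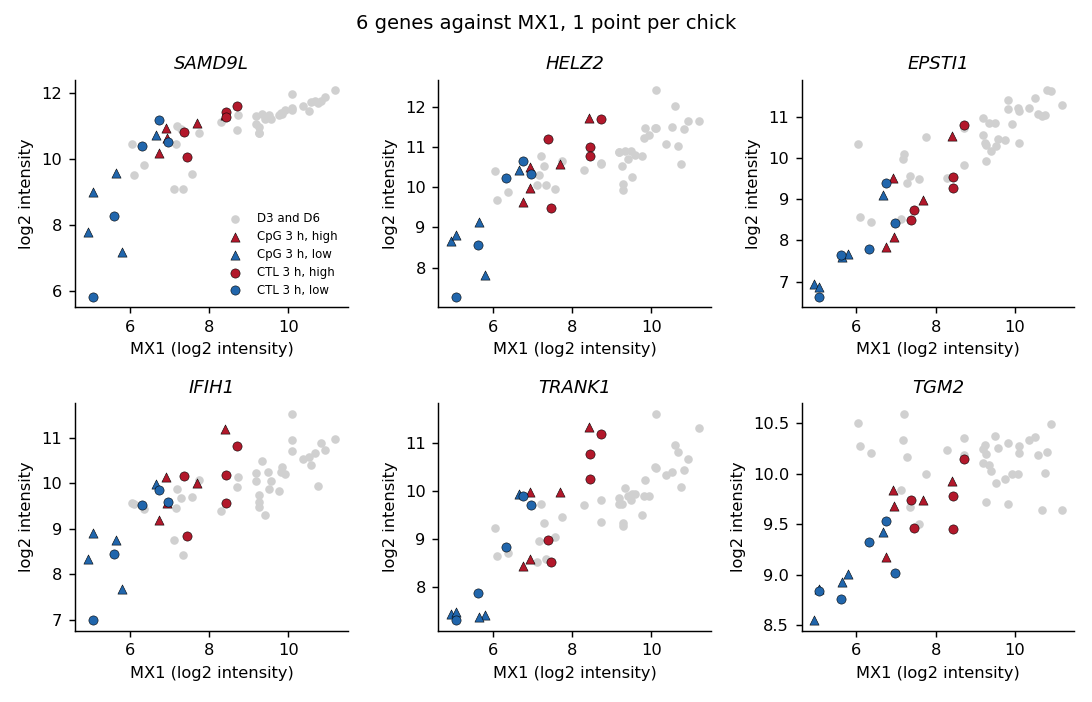
Log2 intensity of 6 genes (vertical axes) against MX1 (horizontal axes), 1 point per chick, with triangles for CpG and circles for CTL chicks at 3 h, red for MX1-high, blue for MX1-low, and grey for D3 and D6 chicks. In the first 5 panels the gene is higher in chicks with more MX1 at both ages, and in the TGM2 panel the grey points lie flat (slope 0.02 ± 0.034).

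Other interferon-induced genes moved in the same direction in part. Of 20 measured, 11 were higher at an unadjusted p under 0.05 and 0 lower, beside 3.57% and 2.93% of all probe sets, with a median difference of 0.46. With MX1 as a number 10 rose, beside 1.03%. EPSTI1, an interferon-response gene first described in epithelial cells beside stroma, ran from 6.63 to 9.40 (median 7.65) in MX1-low and from 7.84 to 10.80 (median 9.13) in MX1-high chicks. It differed by 1.37 ± 0.385, or 2.59-fold, and rose by 0.90 ± 0.098 per unit of MX1 (adjusted p = 7.24e-05). IFI35, a partner of NMI, differed by 0.95 ± 0.271. PARP9, an ADP-ribosyltransferase family member, differed by 1.00 ± 0.326, and PHF11, a zinc finger protein, by 0.49 ± 0.154. These 3 genes rose with MX1 (adjusted p = 0.000863, 0.00253 and 0.00142). Members of the list that did not pass included XAF1 (0.19 ± 0.0936), CD274 (0.21 ± 0.109) and STAT3 (0.42 ± 0.142).

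Transcription factors of the pathway were next. Of 7 measured, 5 were higher at an unadjusted p under 0.05 (3.57% of all probe sets were), and the same 5 rose with MX1 as a number (1.03% of all did): NMI, IRF8, IRF7, IRF1 and IRF2. NMI, which binds STAT proteins, ran from 6.15 to 9.81 (median 8.79) in MX1-low and from 8.73 to 10.45 (median 9.53) in MX1-high chicks, and the ranges overlapped. It rose by 0.77 ± 0.138 per unit of MX1 (adjusted p = 0.00381). IRF7, a factor that drives type I interferon production, rose by 0.42 ± 0.102 (adjusted p = 0.0489), and that call ended when any of 13 of the 20 arrays was left out. IRF8, a factor of myeloid and B cells, rose by 0.47 ± 0.112 (adjusted p = 0.0374), IRF1 by 0.37 ± 0.0900 (adjusted p = 0.0483) and IRF2 by 0.14 ± 0.0313 (adjusted p = 0.0226). Leaving out any of 9, 13 and 4 arrays ended these calls, whereas NMI kept its call without any array. IRF4 and IRF5 differed by 0.10 ± 0.207 and -0.13 ± 0.0742.

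The list of nucleic acid sensors also included their adaptors and Toll-like receptors for bacterial products. Of its 14 measured members, 2 rose with MX1 and 0 fell, beside 1.03% and 0.0769% of all probe sets. IFIH1 (MDA5), the cytoplasmic sensor of double-stranded RNA, ran from 6.99 to 9.98 (median 8.84) in MX1-low and from 8.84 to 11.19 (median 10.07) in MX1-high chicks. It differed by 1.16 ± 0.356 and rose by 0.74 ± 0.111 per unit of MX1 (adjusted p = 0.000853). TLR3, the endosomal sensor of double-stranded RNA, differed by 0.97 ± 0.384 and rose by 0.64 ± 0.138 (adjusted p = 0.0200), a call that any of 3 arrays ended when left out. TBK1, a kinase that activates IRF factors, differed by 0.18 ± 0.0943, and TMEM173 (STING), the adaptor of DNA sensing, by 0.14 ± 0.0951. Over the 14 the median difference was 0.07. TLR21 itself is not analysed here.

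The measured ligands and receptor chains did not pass any test after adjustment in these arrays. Of 7 listed ligands 3 were measured, and IFNA3 and IFNB were not among them. IFNW1, a type I interferon gene, ran from 6.29 to 7.29 (median 6.87) in MX1-high and from 6.54 to 7.68 (median 7.25) in MX1-low chicks, with overlap. It differed by -0.31 ± 0.141 (unadjusted p = 0.0374, adjusted p = 0.738), where 2.93% of all probe sets were lower at an unadjusted p under 0.05. IFNG, the type II interferon, differed by 0.08 ± 0.0927, and IFNL3A, a type III interferon, by -0.02 ± 0.0876. Both of the latter lie below 6.26, the level under which 40% of probe sets fall, where detection cannot be judged from these values. Of the receptor chains and kinases IFNAR1, IFNAR2, IFNGR1, IFNGR2, JAK1, JAK2 and TYK2, 0 of 7 passed. With MX1 as a number 1.11% of all probe sets were called, so that 0 does not set the ligands, receptors or kinases apart. The 7 differences ran from -0.17 ± 0.0855 in IFNGR2 to 0.19 ± 0.0934 in IFNAR2.

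Of the 6 genes that restrain cytokine signalling, 1 rose with MX1 as a number, beside 1.03% of all probe sets. That gene was SOCS1, a JAK inhibitor induced by interferon. It differed by 0.81 ± 0.323 and rose by 0.59 ± 0.103 per unit of MX1 (adjusted p = 0.00304). SOCS3 and CISH differed by 0.16 ± 0.210 and -0.23 ± 0.134. Of 12 antigen presentation genes, TAPBP (tapasin), which loads peptides on class I molecules, was the member that rose with MX1 (0.24 ± 0.0467 per unit, adjusted p = 0.00966), beside 1.03% of all probe sets, and that call ended without CpG chick 5 (adjusted p = 0.0580). ERAP1, which trims such peptides, differed by 0.54 ± 0.216, and CD74, the class II invariant chain, by -0.36 ± 0.194, without passing.

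The inflammatory list gave 0 calls among 18 genes with MX1 as a number, where 1.11% of all probe sets were called, so that 0 does not set the list apart. Its median difference was 0.01. IL1B and IL6 differed by -0.03 ± 0.0769 and 0.06 ± 0.0894, and IL15, a cytokine that is itself interferon-inducible in mammals, by 0.33 ± 0.134 (adjusted p = 0.698).

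**Figure D3:**
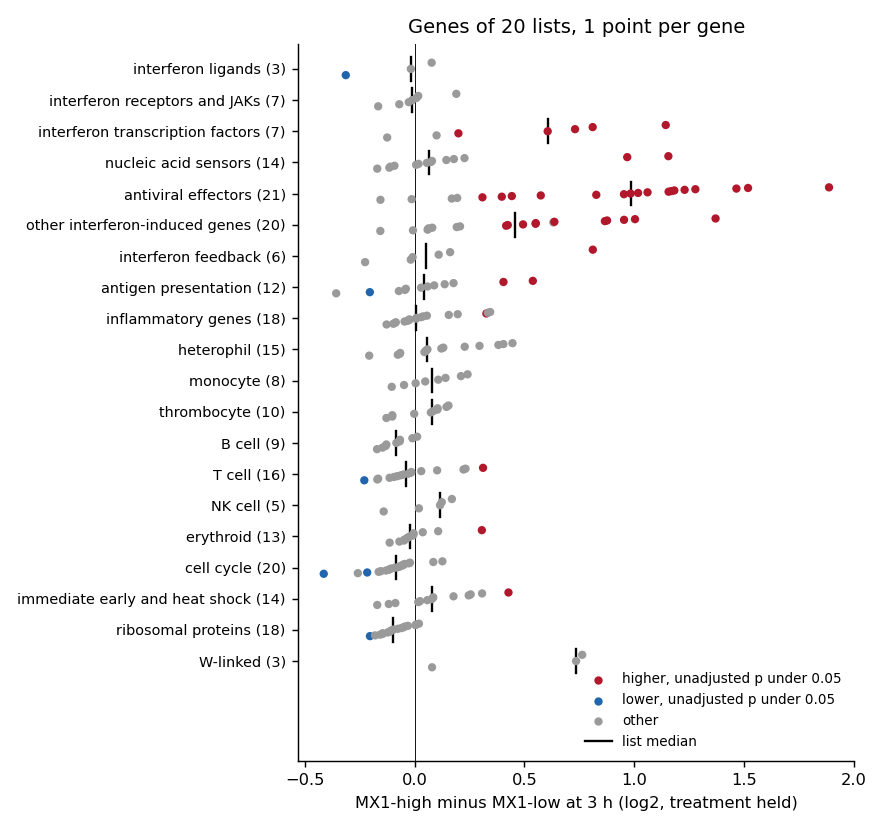
Difference between MX1-high and MX1-low chicks at 3 h (log2, treatment held, horizontal axis) for each gene of 20 lists, with the number of genes in brackets and the list median as a black line. Red and blue points have an unadjusted p under 0.05, and no point passes the adjusted test. The antiviral effectors lie farthest to the right, with a median of 0.98.

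Genes outside the interferon lists also followed MX1. Among genes whose symbol was matched through a gene ID, the 5 with the smallest p in the higher direction were TGM2, ADH4, STX17, MITD1 and FNIP1. TGM2, a transglutaminase that crosslinks proteins, ran from 8.55 to 9.53 (median 8.97) in MX1-low and from 9.18 to 10.14 (median 9.74) in MX1-high chicks. Of its 10 MX1-high values, 7 lay above every MX1-low value. The difference was 0.67 ± 0.127 (unadjusted p = 3.27e-05, adjusted p = 0.624), and TGM2 rose by 0.34 ± 0.0444 per unit of MX1 (adjusted p = 0.000278). STX17, a syntaxin of autophagosome fusion, rose by 0.31 ± 0.0552 (adjusted p = 0.00354). ADH4, an alcohol dehydrogenase, had a slope of 0.19 ± 0.0490 and did not pass (adjusted p = 0.0769). CAMKK2, a kinase that activates AMPK in mammals, has no gene ID in the platform annotation and is named here after its values were seen. It differed by 1.12 (unadjusted p = 0.0007), which placed it between STX17 and MITD1, and rose by 0.66 ± 0.0865 per unit of MX1 at 3 h (adjusted p = 0.000278) and by 0.17 ± 0.0375 at D3 and D6 (adjusted p = 0.0179).

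In the lower direction the 5 genes matched through a gene ID were COA5, STOX1, DNAL4, APLNR and MDGA1, with differences from -0.59 ± 0.161 in STOX1 to -0.23 ± 0.0676 in MDGA1. Of these DNAL4, a dynein light chain, fell with MX1 as a number (-0.18 ± 0.0383 per unit, adjusted p = 0.0212, a call that any of 5 arrays ended when left out), and the other four did not pass. DNAL4 and MDGA1 had means of 5.72 and 5.69 over all 58 arrays, below the level of 6.26 under which detection cannot be judged.

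The 5 genes whose values most resembled MX1 over the 20 arrays, by Pearson's r of deviations from the treatment mean, were MITD1 (r = 0.903), EPSTI1 (0.898), FNDC3A (0.894), TRANK1 (0.890) and FNIP1 (0.888). These values share the arrays on which the genes were ranked and are a description. TRANK1, a large protein with ankyrin repeats, ran from 7.31 to 9.94 (median 7.68) in MX1-low and from 8.45 to 11.33 (median 9.98) in MX1-high chicks, with 6 of 10 MX1-high chicks above all MX1-low chicks. It rose by 1.01 ± 0.115 per unit of MX1. MITD1, which acts in the last step of cell division, rose by 0.47 ± 0.0524 (adjusted p = 7.24e-05 for each).

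The mean of the 21 effectors ordered the chicks much as MX1 did, with exceptions. It ran from 7.41 to 9.60 (median 8.72) in MX1-low and from 8.82 to 10.23 (median 9.55) in MX1-high chicks. Of the 10 chicks with the highest effector mean, 7 were MX1-high and 3 MX1-low. Those 3 were CTL chicks 78 (9.60) and 80 (9.37) and CpG chick 9 (9.47). The lowest MX1-high chick on this mean was CTL chick 81 (8.82), at rank 14 of 20.

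**Figure D4:**
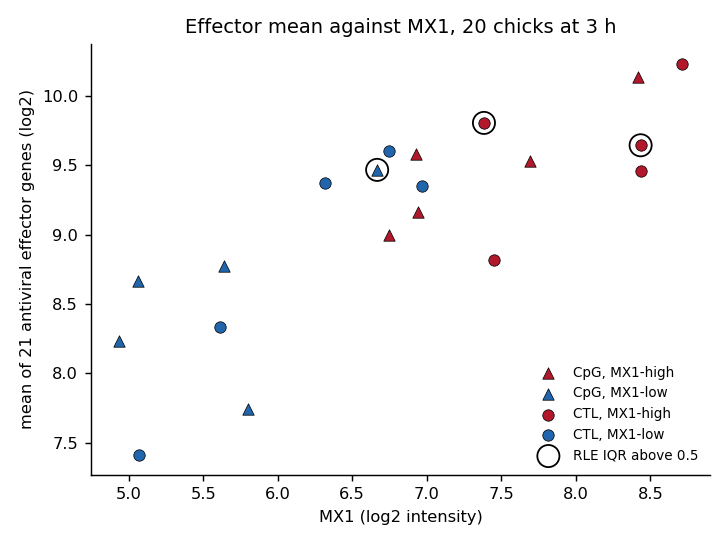
Mean log2 intensity of 21 antiviral effector genes (vertical axis) against MX1 (horizontal axis) in the 20 chicks at 3 h, with triangles for CpG and circles for CTL chicks, red for MX1-high and blue for MX1-low. Rings mark 3 arrays with a spread of deviations above 0.5. The 6 chicks with the lowest effector mean, up to 8.77, are MX1-low.

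Whether the association depended on CpG was asked next. The difference of the split between CpG and CTL chicks called 0 probe sets (smallest adjusted p = 1.00, with 2.37% at an unadjusted p under 0.05). Within CpG chicks the split called 0 (670, 3.22%, at an unadjusted p under 0.05) and within CTL chicks 1 (0.00481%), an unnamed probe set at a low level (996, 4.79%, at an unadjusted p under 0.05). For SAMD9L the difference was 1.98 in CpG and 1.80 in CTL chicks, for EPSTI1 1.35 and 1.39, and for IFIH1 1.28 and 1.03. Heterophil genes had a median difference of -0.33 in CpG chicks (1 of 15 above 0) and 0.32 in CTL chicks (14 of 15 above 0). Of all 20803 probe sets, 8681 were above 0 in CpG and 10740 in CTL chicks. The 15 genes mark 1 cell type in the same chicks, so the counts are not 15 separate observations. For DEFB4A, an avian beta-defensin of heterophil granules, the differences were -0.33 in CpG and 1.09 in CTL chicks. None of the 15 passed the test of CpG against CTL chicks in the split.

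Conversely, with the MX1 split held, CpG against CTL at 3 h called 0 probe sets (smallest adjusted p = 0.381, with 1139, 5.48%, at an unadjusted p under 0.05). Each treatment holds 5 MX1-high and 5 MX1-low chicks, so holding the split could not change the treatment differences, only their errors. A fit without the split also called 0. MX1 itself was not held by the split, and its mean was 6.48 in CpG and 7.11 in CTL chicks. In the fit with the split held, the effector genes had a median treatment difference of -0.14, and 0 of 21 passed. Of the 21, 2 were above 0, beside 9732 of all 20803 probe sets. The effectors vary together among chicks, so the 21 are not separate observations.

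The 38 chicks at D3 and D6 took no part in the split, and the same genes were fitted in these other animals. The gene lists were chosen with earlier results of these data known, so the list counts at either age are not a fresh test. Each gene was fitted on MX1 with the 4 group means held. There 142 probe sets (0.683%) were called, 90 (0.433%) rising and 52 (0.250%) falling with MX1. Of the antiviral effectors 16 of 21 rose and 0 fell, and 13 of them had also risen at 3 h. PNPT1, ADAR and SAMHD1 passed at 3 h and not later, while DDX60, PML and IFITM5 passed later and not at 3 h. Of the other interferon-induced genes 8 of 20 rose, all of which had risen at 3 h, and of the transcription factors 4 of 7 did (NMI, IRF8, IRF7 and IRF1). IFIH1, TLR3 and TAPBP rose at both ages. In D3 chicks alone 8 effectors rose, beside 0.135% of all probe sets, and in D6 chicks alone 7, beside 0.144%.

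SAMD9L rose at D3 and D6 by 0.55 ± 0.0470 per unit of MX1 (adjusted p = 1.36e-09), EPSTI1 by 0.52 ± 0.0607 (6.15e-07) and NMI by 0.38 ± 0.0479 (2.32e-06). None of these calls ended when any of the 38 arrays was left out. IRF7 (0.18 ± 0.0418, adjusted p = 0.0221) and IRF1 (0.19 ± 0.0400, 0.00704) lost theirs without any of 4 arrays and without 1 array, in that order. With the 6 cell type scores as covariates 13 of the 21 effectors and 81 probe sets in all were called (69 rising, 12 falling). Without the 4 arrays that stand apart in quality 14 effectors and 94 probe sets were called (81 rising, 13 falling). Without rows that share all values with another or are numbered below the first annotated one, 92 rose and 37 fell. With array weights 129 rose and 177 fell. The falling calls, 52 in the fit reported, thus varied more with the setting than the 90 rising ones.

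Across all probe sets 74 were called at both ages, each rising with MX1 at both. They made up 34.6% of the 214 that rose at 3 h and 82.2% of the 90 that rose at D3 and D6. Some genes hold several of these probe sets. With 1 probe set per official symbol, 47 rose at both ages, of 147 at 3 h and 58 at D3 and D6. No probe set fell at both ages. Of all 20803, 16 (0.0769%) fell at 3 h and 52 (0.250%) at D3 and D6, so that 0 in common does not set the falling genes apart. SOCS1, which rose at 3 h, had a slope of 0.09 ± 0.0798 later (adjusted p = 0.672), and TGM2, FNIP1, STX17 and FNDC3A had slopes of 0.02 ± 0.0340, 0.02 ± 0.0291, 0.05 ± 0.0428 and 0.06 ± 0.0247, none of which passed.

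The slopes were then compared directly in a fit of all 58 arrays, a test added after the slopes had been seen. Of 20803 probe sets 75 (0.361%) were called. The slope was more positive or less negative at 3 h than later in 60 (0.288%), and less positive or more negative in 15 (0.0721%). Among named genes the slope was larger at 3 h in TGM2 (0.34 against 0.02, adjusted p = 0.00115), TRANK1 (1.01 against 0.42, 0.00743), HELZ2 (0.92 against 0.33, 0.0105), IFI35 (0.58 against 0.21, 0.0212), SAMD9L (1.16 against 0.55, 0.0415) and IFIH1 (0.74 against 0.29, 0.0433). These genes were named from their values at 3 h. Such a choice favours larger slopes at 3 h, so the comparison is not a fresh test of them. With cell type scores as covariates the calls of IFI35, IFIH1 and TRANK1 ended (adjusted p = 0.144, 0.0733 and 0.0733), and without the arrays that stand apart that of IFIH1 did (0.0580). In FNIP1, STX17, FNDC3A and SOCS1 the difference did not pass (adjusted p from 0.0702 to 0.0805). MX1 itself lay higher in the older chicks, as given above, so that the slopes were taken over different ranges of MX1.

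**Figure D5:**
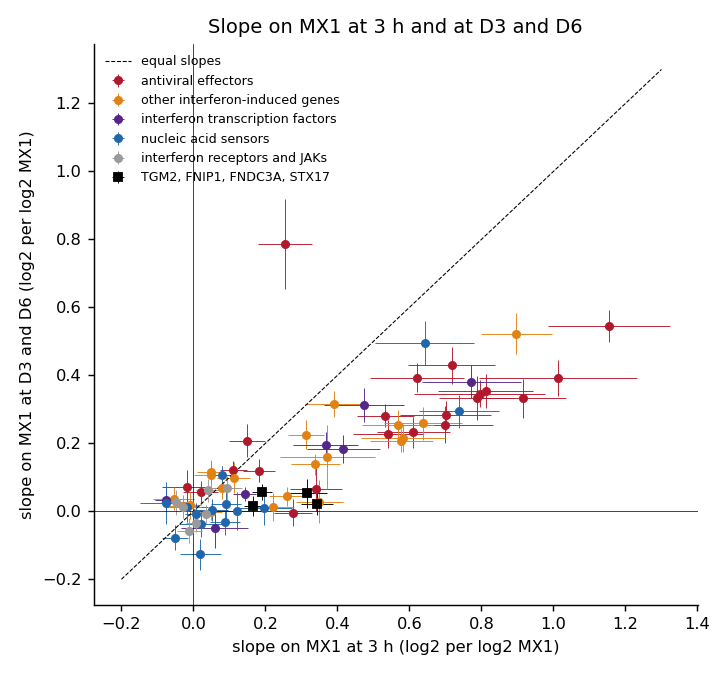
Slope of each gene on MX1 (log2 per log2 unit of MX1) at 3 h (horizontal axis) and in the 38 chicks at D3 and D6 (vertical axis), with bars of 1 SE and a dashed line of equal slopes, for 5 gene lists and 4 genes outside them. SAMD9L lies at 1.16 and 0.55, TGM2 at 0.34 and 0.02, and the receptors and kinases near 0 on both axes.

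Cell markers and array quality were compared between MX1-high and MX1-low chicks in 13 measures, with an exact permutation test that kept treatments apart (63504 arrangements, two-sided). None passed after adjustment (smallest adjusted p = 0.332). The spread of an array's deviations from the median array (RLE IQR) was 0.441 ± 0.0916 (SD, n = 10) in MX1-high and 0.371 ± 0.0658 in MX1-low chicks (p = 0.0742). The score of 18 ribosomal protein genes was 0.03 ± 0.509 and 0.43 ± 0.353 (p = 0.0520), and that of 9 B cell genes -0.12 ± 0.330 and 0.20 ± 0.434 (p = 0.0765). The heterophil score was 0.11 ± 0.582 and -0.03 ± 0.632 (p = 0.636). Of the marker genes of heterophils (15), monocytes (8), thrombocytes (10), B cells (9), T cells (16), NK cells (5) and red cells (13), 0 were called with MX1 as a number, a share not set apart from the 1.11% of all probe sets. Since no 3 h call remained with the cell scores as covariates, the part of cell mix in those calls was not separated from MX1.

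At 3 h, 3 arrays stood apart with an RLE IQR above 0.5, CpG chick 9 (0.550, MX1-low) and CTL chicks 74 (0.640) and 79 (0.544, both MX1-high). Without them the median difference of the effectors was 1.02, and with RLE IQR as a covariate 0.75. Transcripts of the female-specific W chromosome had a mean above 8 in 4 MX1-high and 3 MX1-low chicks, and with that mean as a covariate the effector median was 0.92.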

How the data were processed

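RNA of whole blood, collected in PAXgene tubes and treated with DNase per the labels' protocols, was measured on 1 array per chick. The authors deposited log2 expression values made with RMA, per the submitters' processing notes, with no version or settings stated there. RMA summarises probes after quantile normalization, which sets all arrays to a like distribution, so a shift of most genes would be removed. The values were used as deposited, and their signal over background is unknown. Array medians lay between 6.64 and 6.78.

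The platform annotation gave 1 symbol for 12300 of 20804 probe sets. Of these, 11727 symbols were checked against the gene table of GRCg7b, which served for names alone. The build behind the array's design is not known here, so no coordinates are printed. For a gene with several probe sets the brightest stood for it.

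Tests used limma 3.58.1 (lmFit, eBayes) in R 4.3.3, two-sided, with Benjamini-Hochberg adjustment over the 20803 probe sets other than MX1 and a threshold of 0.05. A slope is the log2 change per log2 unit of MX1 with group means held. Scores are mean z-scores of marker lists. The split, the MX1 slope at 3 h and their alternatives came from the same 20 arrays, and the D3 and D6 arrays were not used in the split. Chicks are separate animals, and nothing is known of their hatch or hybridisation groups. The fits of the split at 3 h and of the slope at D3 and D6 were tested on simulated data with independent noise for each gene. The slope on MX1 at 3 h and the difference of the slopes were not tested in this way.

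The comparison and the gene lists were chosen with earlier results of these data known. A rule chose 96 genes, of which the text prints a part. It took the 5 smallest p with a symbol matched through a gene ID in each direction, since fewer passed. It also took the 4 smallest p of each list, all measured interferon ligands, receptors and IRF genes, and the 5 genes most like MX1. Other genes were named after their values were seen. Promoter sequences were not used here.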

Additional observations from a re-analysis of the deposited data

Results flagged for a closer look

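The slope on MX1 was larger at 3 h than at D3 and D6, by a test of the difference itself, in 6 named genes. The differences of the slopes were 0.3199 in TGM2, 0.4442 in IFIH1, 0.5835 in HELZ2, 0.6084 in SAMD9L, 0.3698 in IFI35 and 0.59 in TRANK1 (log2 per log2 unit of MX1, adjusted p from 0.00115 to 0.0433 by limma). The 6 genes were named from their values at 3 h, a choice that favours larger slopes at 3 h. Over all 20803 probe sets, the slope was more positive or less negative at 3 h in 60 and the reverse in 15. With cell type scores as covariates IFI35, IFIH1 and TRANK1 no longer passed, and without the arrays that stand apart IFIH1 did not.

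In 17 of 215 groups of values (7.91%) the highest or lowest chick lay far from the others by Dixon's criterion, which chance meets in about 1 in 20 groups. CpG chick 9 had an RLE IQR of 0.5497, apart from the other MX1-low chicks and from the other MX1-low CpG chicks.

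Among MX1-high chicks, COA5 was 9.722 in chick 81 and MDGA1 was 5.292 in chick 75. Chick 74 had an IFNG value of 3.681, an IFNL3A value of 5.845 and an HBAD value of 13.82. LYG2 was 10.33 in chick 75, ITGB3 was 10.09 in chick 10, KIF11 was 6.819 in chick 82 and RPS14 was 10.92 in chick 3.

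Among MX1-low chicks, MDGA1 was 6.076 and GATA3 was 9.762 in chick 1. TBK1 was 8.749 and LYG2 was 9.919 in chick 9, AvBD1 was 8.918 in chick 2 and TUBB1 was 11.05 in chick 76. Chicks 74 and 9 are 2 of the 3 arrays with an RLE IQR above 0.5, and the part of array quality in these values was not tested.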

How the results depend on the processing

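The split at 3 h called 0 probe sets in the fit reported and from 0 to 1 when an array was left out, the 1 being NEURL1 without CTL chick 81. It called 14 when all 58 arrays shared the residual spread, among them SAMD9L, HELZ2, MOV10, IFI35, TGM2, STX17, CAMKK2 and a TRANK1 probe set (15458936) other than the brighter one that stands for TRANK1 elsewhere. With MX1 as a number it called 230. Added after seeing the data, the fits of that form gave 120 with RLE IQR as a covariate, 219 without the arrays that stand apart, 16 in CpG chicks alone, 0 in CTL chicks alone and 0 with cell type scores. Leaving out an array moved the 230 to between 138 and 295, and by over 1.5 times without CTL chick 73 (138), CpG chick 5 (141) or CTL chick 75 (146). The 1 call within CTL chicks became 0 without the lowest 40% of means and 0 with array weights, and the splits within CpG and within CTL chicks each gave 0 to 1 when an array was left out. The slope at D3 and D6 called 142 in the fit reported, 306 with array weights (129 rising), 83 with 1 probe set per gene (fewer tested), 81 with cell type scores, 94 without the arrays that stand apart, 31 in D3 chicks alone and 32 in D6 chicks alone (fewer chicks). Leaving out an array gave 79 (CpG chick 14) to 204, and 91 without CpG chick 13. The difference of the slopes called 75, and 33 with cell type scores. The cause was not tested where the number of arrays or probe sets stayed the same. No named gene changed sign while called. CpG against CTL with the split held called 0 in all its alternatives. No paired analysis was possible because the groups share no chick numbers. Absolute detection and the number of arrays limit what low genes such as IFNG can show.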
